A study of Caenorhabditis elegans with 66 samples.

Results

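21ur-5107 and 21ur-5504 are 2 of the 17114 piRNAs in a count table of small RNA from whole Caenorhabditis elegans. They were chosen by their lower counts in the snpc-1.2 mutant than in wild type, and the values of snpc-1.2 are therefore given below as a description, with no test. The same holds for 21ur-5107 in snpc-1.3 at 48 h and for 21ur-5504 in snpc-1.2;snpc-1.3 at 72 h, which the choice also used. Both piRNAs passed the filter on low counts, as did 8512 piRNAs in all. Animals were collected at 72 h as gravid adults and at 48 h as L4 larvae, and the libraries fall into 3 sets. Set A holds snpc-1.2(-), snpc-1.3(-) and wild type, which is strain N2 in all 3 sets per the titles. Set B holds the mutant of both genes, snpc-1.2(-);snpc-1.3(-), then prg-1(-), mut-16(-), hrde-1(-) and a wild type of its own. Of set C, whose wild-type column headers carry the letters RT in place of a set letter, the wild type was used, and its mutants were not analysed here. Each of the 18 groups has 3 libraries, 54 in all. The labels mark every mutant by (-) and name no allele, while the titles add the word null for snpc-1.2, snpc-1.3 and the mutant of both. Neither says whether the libraries of a group came from separate cultures, so p-values measure the spread between these libraries.

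piRNAs are short germline RNAs that guide a Piwi protein to foreign or transposon-like transcripts. In C. elegans most are made one by one from very small genes of their own, densely packed on chromosome IV, and begin with a uracil. Transcription of these genes needs factors related to the complex that drives small nuclear RNA genes, and snpc-1.2 and snpc-1.3 are both related to SNAPC1, a subunit of that complex. snpc-1.3 is known for its part in piRNA expression of the male germline, and L4 hermaphrodites make sperm before adults make oocytes. PRG-1 is the Piwi protein that binds and stabilises piRNAs. MUT-16 is a scaffold for making the secondary small RNAs downstream of piRNAs, and HRDE-1 is a nuclear Argonaute that carries such secondary small RNAs.

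The 2 sequences are shown because they identify the molecules that were counted and because they share little. They are read from the authors' deposited table, 5′ to 3′ with T for U, with capitals for the seed, bases 2 to 8, the stretch that begins pairing with a target.
21ur-5107: tCCGAATTccgaattgaaact
21ur-5504: tCTTGAACggctaggatcact
Both are 21 bases long and begin with T, as do 97.7% of the 13211 piRNAs with a listed sequence. Their GC contents are 38.1% for 21ur-5107 and 47.6% for 21ur-5504, above the median of 33.3% for all listed piRNAs. 21ur-5107 opens with a run of 7 bases that is repeated at once from base 8, and 2 other listed piRNAs carry its seed. No other listed piRNA carries the seed of 21ur-5504. None is identical to either or differs from either by 2 or fewer mismatches.

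21ur-5107 (WBGene00047543) lies on the minus strand of chromosome IV at 15257820 to 15257840, and 21ur-5504 (WBGene00169765) on the plus strand of the same chromosome at 16041087 to 16041107, both in build WBcel235. Their starts are 783267 bases apart, in a chromosome that holds 92.0% of the listed piRNAs. No annotated gene other than piRNA genes overlaps either, so both are intergenic. The nearest protein-coding genes to 21ur-5107 are srj-42, 5562 bases away at lower coordinates, and Y73F8A.5, 2027 bases away at higher coordinates. Those nearest to 21ur-5504 are jac-1, 14239 bases away at lower coordinates, and Y105C5B.1418, 26062 bases away at higher coordinates.

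Each locus also carries annotated piRNAs that start a few bases upstream on the same strand. Of the 15363 annotated piRNAs, 6002 (39.1%) have another on the strand that starts within 4 bases on either side. The upstream piRNAs are shown because nearly the same molecule could be counted under another name. Capitals mark the bases shared with 21ur-5107 in 21ur-8974 and with 21ur-5504 in 21ur-8276 and 21ur-7602.
21ur-8974: tTCCGAATTCCGAATTGAAAC
21ur-8276: tTCTTGAACGGCTAGGATCAC
21ur-7602: tatTCTTGAACGGCTAGGATC
They took few counts. Summed over the 3 wild-type libraries of set A, 21ur-8974 had 43 counts at 72 h and 29 at 48 h, 0.137% and 0.115% of those of 21ur-5107. 21ur-7602 had 49 counts at 72 h and 24 at 48 h, 0.175% and 0.337% of those of 21ur-5504. In the 6 snpc-1.2 libraries 21ur-7602, 21ur-8276 and 21ur-11000, which starts 4 bases upstream of 21ur-5504, had 0 counts each, as 21ur-5504 itself was nearly absent there.

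Levels are given as CPM, the piRNA counts of a library scaled to a fixed sum, because the table holds piRNAs alone and its column sums are not the depth of the libraries. These sums ran over 610946 to 1168689 in wild type of sets A and B, 597470 to 795954 in snpc-1.2 at 48 h and 132848 to 275171 in snpc-1.2 at 72 h. They were 3167 to 34162 in prg-1 and snpc-1.2;snpc-1.3, so a CPM there is a share of a small remainder and is printed with its counts. Fold changes are log2 values on the CPM scale unless TMM is named. TMM scales by a trimmed mean of log ratios between libraries and assumes that most piRNAs do not change. Its medians over all tested piRNAs still lay away from 0, at -0.83 in snpc-1.2 at 48 h. They were -3.26 in snpc-1.2;snpc-1.3 and -4.72 in prg-1 at 72 h. With so few piRNA counts, the medians of those mutants do not measure how far a typical piRNA fell. A piRNA is called where its edgeR quasi-likelihood test gives an adjusted p below 0.05 over all 8512. Replicate 3 of the adult wild type in set C has 9912 piRNA counts, and its Spearman correlations with replicates 1 and 2 were 0.252 and 0.322, against 0.883 between those.

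In wild type both piRNAs were among the most abundant. At 72 h 21ur-5107 was the 1st to 8th most counted piRNA in the 6 libraries of sets A and B, and 21ur-5504 the 2nd to 4th. At 48 h 21ur-5107 was 4th or 5th and 21ur-5504 was 14th to 74th. In set C the levels of both piRNAs were lower, with ranks by median CPM of 54 for 21ur-5107 and 93 for 21ur-5504.

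**Figure D1:**
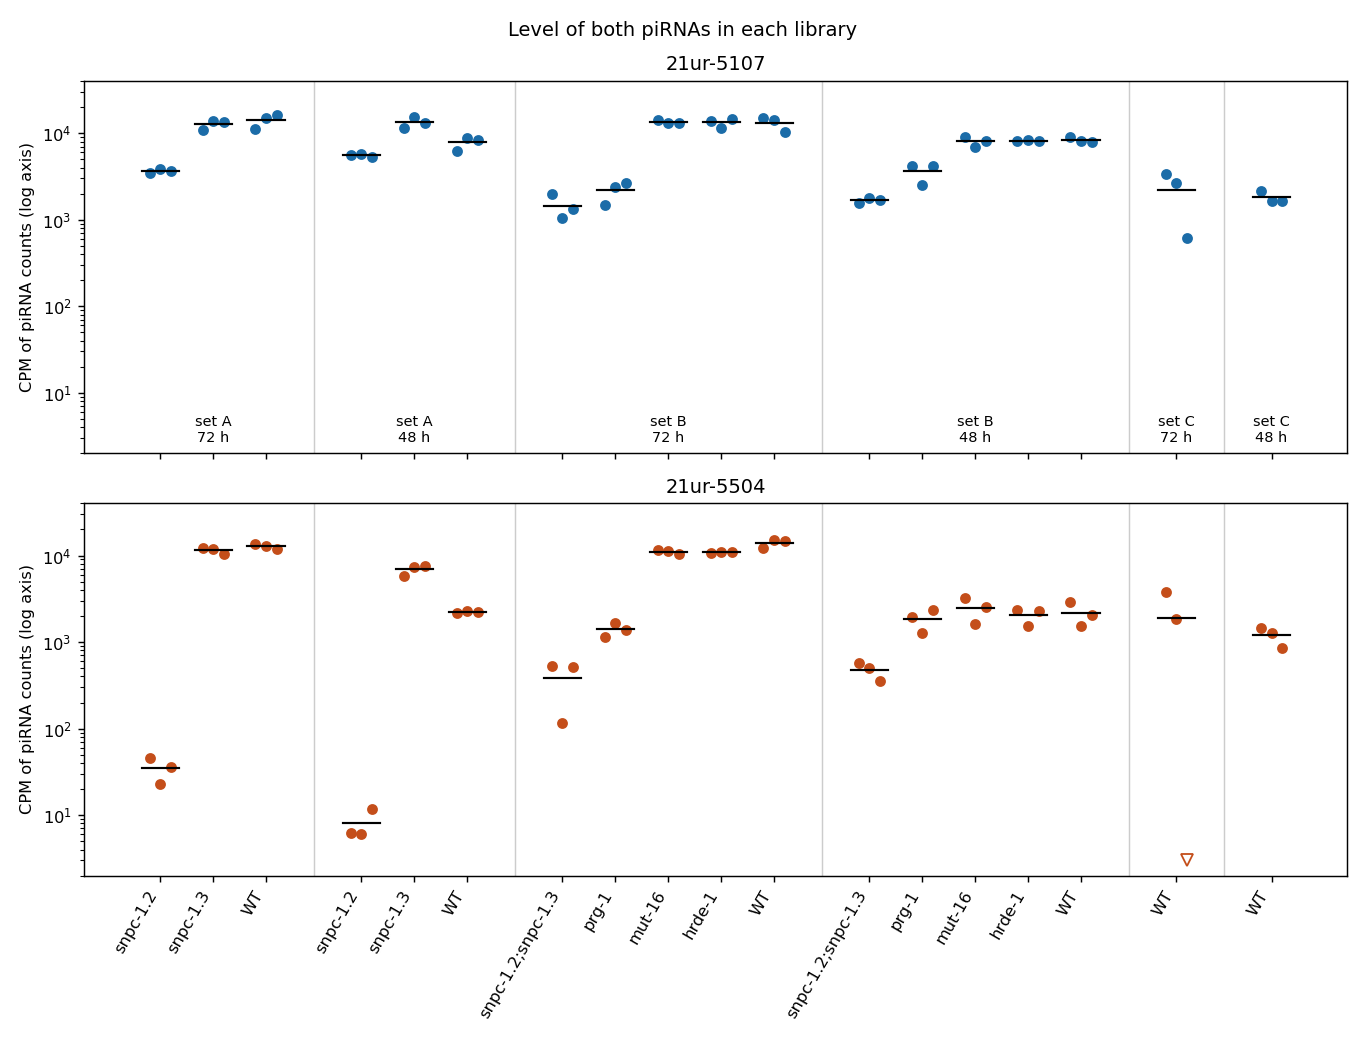
CPM of piRNA counts (log axis) of 21ur-5107 (top) and 21ur-5504 (bottom) in each of the 54 libraries, by set, age and genotype; points are libraries, lines are means of 3, and the open triangle marks the set C library with 0 counts of 21ur-5504. 21ur-5504 sits at 6.00 to 45.3 CPM in snpc-1.2, and 21ur-5107 at 3444 to 5724 CPM in those libraries.

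In snpc-1.2 21ur-5504 was almost gone at both ages, while 21ur-5107 was still present, at 25.8% of the wild-type CPM at 72 h and 70.5% at 48 h. At 72 h 21ur-5504 had 7, 3 and 10 counts in snpc-1.2, against 8285, 12229 and 7531 in wild type of set A. That is 45.3, 22.6 and 36.3 CPM in snpc-1.2, against 13561, 12990 and 11887 CPM in wild type. The mean was 34.7 ± 11.4 CPM in snpc-1.2, with 12813 ± 851 CPM in wild type (SD, n = 3 each), which leaves 0.271% of the wild-type level, a log2 fold change of -8.50 (SE 0.48). These values are shares of the piRNA counts in RNA of whole animals, and whether the number of germ cells differed was not tested. The library with 3 counts has an exact 95% interval of 4.66 to 66.0 CPM, for counting error only. At 48 h 21ur-5504 had 5, 4 and 7 counts in snpc-1.2, against 2265, 2680 and 2184 in wild type. The CPM averaged 8.00 ± 3.22 in the snpc-1.2 libraries, with 2217 ± 70.2 in wild type (SD, n = 3 each), 0.361% of the wild-type level and a log2 fold change of -8.15 (SE 0.49).

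21ur-5107 had 532, 517 and 997 counts in snpc-1.2 at 72 h, against 6772, 14186 and 10359 in wild type. In CPM this is 3444, 3892 and 3623 in snpc-1.2, against 11084, 15069 and 16350 in wild type. The groups do not overlap, and the means differ by a log2 fold change of -1.96 (SE 0.26). At 48 h the CPM values were 5583, 5724 and 5232 in snpc-1.2, against 6272, 8769 and 8405 in wild type. The groups lie close but do not overlap, with a log2 fold change of -0.50 (SE 0.25). 21ur-5107 was still the 6th most counted piRNA in each snpc-1.2 library at 48 h and the 10th to 18th at 72 h, while 21ur-5504 held ranks 4838 to 6110 at 48 h and 2928 to 4067 at 72 h.

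The size of these differences depends on the scaling, and the median of all piRNAs shows by how much. Over all tested piRNAs the median log2 fold change was 1.51 at 72 h and 0.14 at 48 h on the CPM scale, and -0.42 and -0.83 with TMM factors. With TMM 21ur-5107 was at -3.95 at 72 h and -1.49 at 48 h, and 21ur-5504 at -10.47 and -9.14. Ordered by fold change on the CPM scale from the lowest of 8512, 21ur-5504 stood at place 345 at 72 h and 119 at 48 h, and 21ur-5107 at place 2513 at 72 h and 2924 at 48 h. Of all tested piRNAs 30.6% were called lower at 72 h and 26.1% at 48 h. In numbers, 2604 were called lower and 4251 higher at 72 h, and 2223 lower and 264 higher at 48 h, while TMM factors gave 3669 lower and 1962 higher at 72 h, and 3703 lower and 5 higher at 48 h. The difference between the ages, the 72 h effect minus the 48 h effect, was -1.45 (SE 0.35) for 21ur-5107 and -0.35 (SE 0.75) for 21ur-5504.

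Wild type was compared between the ages to see when each piRNA is present without any mutation. Both rose in adults. Sets A and B share their wild-type libraries with the contrasts that chose the piRNAs, and set C does not. 21ur-5504 had 12178, 15224 and 14857 CPM in set B at 72 h, against 2867, 1551 and 2049 CPM at 48 h. In set A the values were 13561, 12990 and 11887 CPM at 72 h, against 2155, 2293 and 2203 CPM at 48 h. The ages do not overlap in either set, and the log2 fold changes were 2.71 (SE 0.33) in set B and 2.53 (SE 0.33) in set A, with edgeR adjusted p = 1.9e-10 and 1.0e-09. 21ur-5107 had 14833, 14129 and 10290 CPM in set B at 72 h, against 8910, 8086 and 7985 CPM at 48 h, a log2 fold change of 0.65 (SE 0.25, adjusted p = 0.015 by edgeR). In set A its log2 fold change was 0.86 (SE 0.25, adjusted p = 0.0014 by edgeR), again with no overlap of the ages. At 72 h 27.7% of all tested piRNAs were called higher in set B and 29.6% in set A. The set B call of 21ur-5107 was lost without wild type replicate 1 at 72 h, at 0.55 (adjusted p = 0.066 by edgeR), and with DESeq2, at 0.61 (adjusted p = 0.068).

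In set C the log2 fold changes were 0.90 for 21ur-5504 and 0.46 for 21ur-5107. 21ur-5504 had 3785, 1836 and 0 CPM at 72 h, against 1470, 1266 and 856 CPM at 48 h. The value of 0 comes from replicate 3, where it allows up to 303 CPM. This log2 fold change of 0.90 (SE 0.32, adjusted p = 0.020 by edgeR) was called, as were 15.4% of all tested piRNAs in this direction, and with TMM factors it was 0.92 and not called (adjusted p = 0.097 by edgeR). Without replicate 1 at 72 h it was 0.15 and not called, without replicate 3 at 48 h 0.71 and not called, and for set C fitted alone 0.72 and not called (adjusted p = 0.75, 0.11 and 0.51 by edgeR). 21ur-5107 had 3368, 2649 and 605 CPM at 72 h, against 2128, 1653 and 1644 CPM at 48 h, a log2 fold change of 0.46 (SE 0.25, adjusted p = 0.13 by edgeR) that reached 0.73 and was called without replicate 3 at 72 h (adjusted p = 0.0034 by edgeR). Averaged over the 3 sets, both were called higher at 72 h, 21ur-5504 by 2.05 (SE 0.19, adjusted p = 4.3e-15 by edgeR) and 21ur-5107 by 0.66 (SE 0.14, adjusted p = 2.6e-05 by edgeR). These averages include sets A and B, whose wild-type libraries also served in the choice, so they are not independent of the choice. Of all tested piRNAs 35.0% were called higher at 72 h, and the median log2 fold change was -0.31, or 0.07 with TMM factors, which put 21ur-5107 at 1.02 and 21ur-5504 at 2.41. From the highest of 8512, 21ur-5504 stood at place 355 and 21ur-5107 at place 3094.

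In snpc-1.3 larvae 21ur-5504 stood above wild type, and in snpc-1.3 adults no difference was called for either piRNA. Wild type of set A also served in the choice of both piRNAs, so the snpc-1.3 tests are not independent of the choice. At 48 h 21ur-5504 had 5866, 7379 and 7520 CPM in snpc-1.3, against 2155, 2293 and 2203 CPM in wild type of set A. Each snpc-1.3 library exceeded each wild-type library, and 21ur-5504 rose by 1.64 in log2 units (SE 0.32, adjusted p = 8.0e-06 by edgeR), a 3.12-fold higher mean CPM. Of all tested piRNAs 30.8% were called higher in this comparison, and the median log2 fold change of all was -0.19, or 0.31 with TMM factors. 21ur-5107, given as a description, had 11352, 15404 and 13252 CPM in snpc-1.3 at 48 h, against 6272, 8769 and 8405 CPM in wild type. Its log2 fold change was 0.77 (SE 0.25), and 1.31 with TMM factors.

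At 72 h 21ur-5504 had 12331, 11970 and 10320 CPM in snpc-1.3, against 13561, 12990 and 11887 CPM in wild type, and 21ur-5107 had 10858, 13704 and 13467 CPM in snpc-1.3, against 11084, 15069 and 16350 CPM in wild type. The groups overlap for both, and the log2 fold changes of -0.15 (SE 0.31) and -0.16 (SE 0.24) were not called (adjusted p = 0.94 and 0.89 by edgeR), where 11.5% of all tested piRNAs were called. For 21ur-5504 the snpc-1.3 effect of adults minus that of larvae was -1.79 (SE 0.44, adjusted p = 0.0012 by edgeR), a difference called in this direction for 20.8% of all tested piRNAs. For 21ur-5107 this difference was -0.93 (SE 0.35), a description.

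In snpc-1.2;snpc-1.3, the mutant of both genes, few counts of either piRNA were left, and both were lower than wild type as shares of the remaining piRNA counts. 21ur-5107 had 46, 29 and 48 counts at 48 h in the mutant, against 8361, 6459 and 6910 in wild type of set B. As CPM this was 1563, 1801 and 1705 in the mutant, against 8910, 8086 and 7985 in wild type. It fell by 2.31 in log2 units (SE 0.28, adjusted p = 6.2e-11 by edgeR), and the log2 fold change with TMM factors was -3.70. At 72 h it had 48, 36 and 36 counts in the mutant, against 10388, 13811 and 7757 in wild type, and 1978, 1054 and 1322 CPM against 14833, 14129 and 10290 CPM. It fell by 3.19 (log2, SE 0.29, adjusted p = 1.8e-16 by edgeR), with -5.21 by TMM factors. The difference between the ages was -0.88 (SE 0.39) and was not called (adjusted p = 0.19 by edgeR), though it was called when set B was fitted alone (adjusted p = 0.049 by edgeR). This difference was called lower for 0.787% of all tested piRNAs, a share limited by the few piRNA counts of this mutant.

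21ur-5504 had 17, 8 and 10 counts in snpc-1.2;snpc-1.3 at 48 h, against 2690, 1239 and 1773 in wild type. Its CPM was 578, 497 and 355 in the mutant, against 2867, 1551 and 2049 in wild type, and it fell by 2.18 (log2, SE 0.42, adjusted p = 2.4e-05 by edgeR), with -3.56 by TMM factors. At 72 h, as a description, it had 13, 4 and 14 counts in the mutant, against 8529, 14881 and 11199 in wild type. The CPM was 536, 117 and 514 in the mutant, against 12178, 15224 and 14857 in wild type, a log2 fold change of -5.25 (SE 0.43), and -7.27 with TMM factors. Of all tested piRNAs 20.4% were called lower at 48 h and 16.4% at 72 h. The medians of the log2 fold changes of all tested piRNAs were -3.01 and -2.38. The libraries of this mutant held 16101 to 34162 piRNA counts in all, so most tested piRNAs had few counts there. These medians therefore do not measure how far a typical piRNA fell, and the counts also limit the shares called.

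Set beside each other, snpc-1.2 and snpc-1.2;snpc-1.3 left alike counts of 21ur-5504 in unlike totals. The range was 3 to 10 counts in snpc-1.2 and 4 to 17 in the mutant of both genes. The CPM was 6.00 to 45.3 in snpc-1.2 and 117 to 578 in the mutant of both genes, whose piRNA totals are smaller. These mutants belong to different sets, so set and genotype cannot be told apart and no test was made between them.

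**Figure D2:**
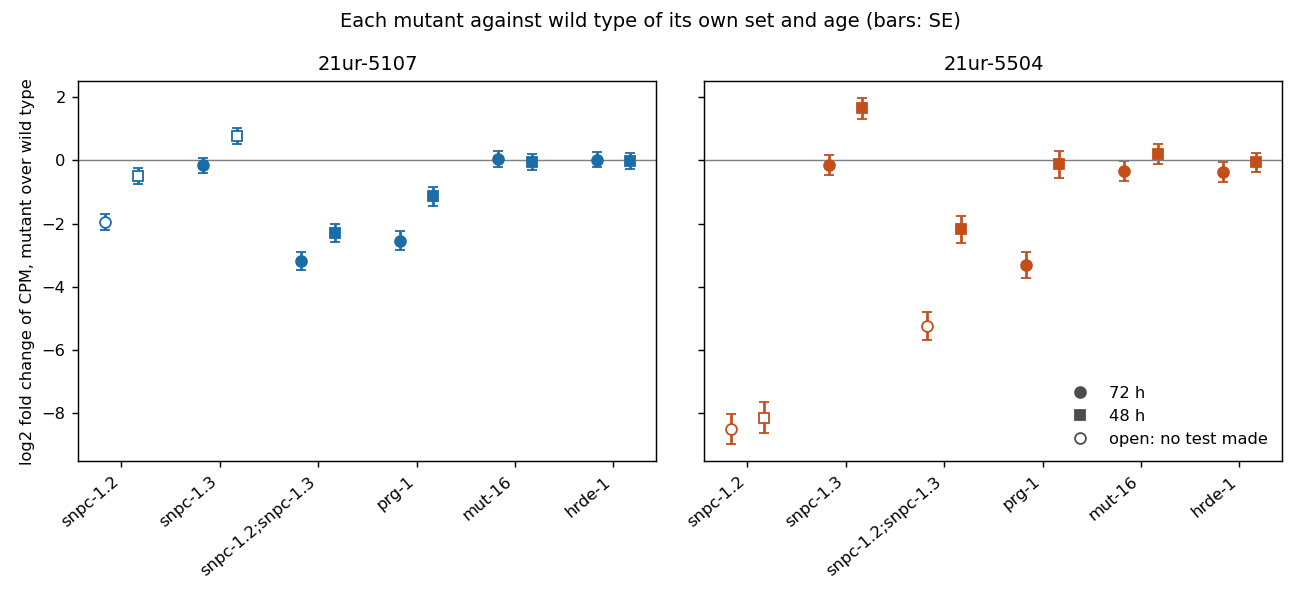
Log2 fold change of CPM with its SE for each mutant over the wild type of the same set and age, at 72 h (circles) and 48 h (squares), for 21ur-5107 (left) and 21ur-5504 (right); open symbols are descriptions with no test. 21ur-5504 lies at -8.50 and -8.15 in snpc-1.2 and at 1.64 in snpc-1.3 at 48 h, and mut-16 and hrde-1 lie near 0 for both.

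Loss of PRG-1 left 8 to 37 counts of 21ur-5107 and 4 to 21 of 21ur-5504. At 72 h 21ur-5107 had 9, 23 and 29 counts in prg-1, 1484, 2403 and 2669 CPM, against 14833, 14129 and 10290 CPM in wild type of set B. It fell by 2.54 (log2, SE 0.30, adjusted p = 3.6e-11 by edgeR), with -4.07 by TMM factors. 21ur-5504 had 7, 16 and 15 counts in prg-1 at 72 h, 1154, 1672 and 1381 CPM, against 12178, 15224 and 14857 CPM in wild type, and fell by 3.31 (log2, SE 0.41, adjusted p = 2.0e-09 by edgeR), with -4.86 by TMM factors. Neither overlaps with wild type, and 6.86% of all tested piRNAs were called lower. These wild-type libraries also served in the choice of 21ur-5504, so its test here is not independent of the choice. Over all tested piRNAs 584 were called lower and 448 higher, with a median moderated log2 fold change of -4.15. The split turned with the scaling, to 1716 lower and 407 higher with TMM factors. With DESeq2 it was 217 lower and 2122 higher, and the median was 1.65. The prg-1 libraries at 72 h held 6066 to 10864 piRNA counts in all, so most tested piRNAs had few or no counts there. Neither median therefore measures how far a typical piRNA fell, and these counts also limit the share called. DESeq2 gave -1.78 for 21ur-5107 and -2.54 for 21ur-5504, both called.

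At 48 h 21ur-5107 had 34, 8 and 37 counts in prg-1, 4142, 2526 and 4164 CPM, against 8910, 8086 and 7985 CPM in wild type. It fell by 1.14 (log2, SE 0.29, adjusted p = 0.0033 by edgeR), where 5.25% of all tested piRNAs were called lower. All tested piRNAs together had 447 lower and 415 higher calls. These were 2029 lower and 387 higher by TMM factors, and 157 lower and 791 higher by DESeq2. The prg-1 libraries at 48 h held 3167 to 8885 piRNA counts in all, which limits the share called. For 21ur-5107 TMM factors gave -2.54, and DESeq2 gave -0.83 and made no call (adjusted p = 0.11). 21ur-5504 had 16, 4 and 21 counts in prg-1, 1949, 1263 and 2364 CPM, against 2867, 1551 and 2049 CPM in wild type, and the groups overlap. Its log2 fold change was -0.12 (SE 0.42) and was not called (adjusted p = 0.85 by edgeR), while with TMM factors it was -1.57 and called (adjusted p = 0.026 by edgeR). In the authors' deposited table of batch-corrected log2 CPM, 21ur-5504 stood at 8.92, 7.55 and 9.25 in prg-1, against 10.76, 9.87 and 10.27 in wild type at this age, with no overlap. That scale differs from the CPM used here, and how many of all piRNAs separate on it was not counted.

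The effect of prg-1 on 21ur-5504 at 72 h minus that at 48 h was -3.18 (SE 0.61, adjusted p = 0.0050 by edgeR), where 0.106% of all tested piRNAs, 9 in number, were called in this direction. That number was 0 with TMM factors, 20 with DESeq2 and 22 with set B fitted alone. It is limited by the few piRNA counts in the prg-1 libraries. The wild-type libraries at 72 h also served in the choice of 21ur-5504, so this test is not independent of the choice. The age difference of 21ur-5504 was not called with TMM factors (-3.30, adjusted p = 0.13 by edgeR) or without prg-1 replicate 3 at 48 h (-2.98, adjusted p = 0.16 by edgeR). For 21ur-5107 the difference was -1.40 (SE 0.42) and was not called (adjusted p = 0.20 by edgeR), but was called when set B was fitted alone (adjusted p = 0.022 by edgeR). Within prg-1 itself 21ur-5504 lay between 1154 and 2364 CPM over both ages, while in wild type of set B it averaged 14086 ± 1662 CPM at 72 h and 2156 ± 664 CPM at 48 h (SD, n = 3 each).

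In mut-16 and hrde-1 no difference from wild type was called for either piRNA at either age. 21ur-5107 averaged 13421 ± 613 CPM in mut-16 and 13270 ± 1734 in hrde-1 at 72 h, and 13084 ± 2445 in wild type. At 48 h it averaged 8012 ± 1086 CPM in mut-16 and 8183 ± 52.2 in hrde-1, and 8327 ± 507 in wild type (SD, n = 3 each). Its 4 log2 fold changes lay between -0.06 and 0.04, with SEs of 0.24 (adjusted p = 0.98 to 1 by edgeR).

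21ur-5504 was at 11647, 11186 and 10457 CPM in mut-16 and at 10662, 10993 and 10989 CPM in hrde-1 at 72 h, against 12178, 15224 and 14857 CPM in wild type. Every library of these mutants lies below every wild-type library, but both mutants share these wild-type libraries, which also served in the choice of 21ur-5504. How many of all tested piRNAs separate in this way was not counted. The log2 fold changes of -0.34 and -0.37 (SE 0.31 each) were not called (adjusted p = 0.78 and 0.80 by edgeR). Of all tested piRNAs 7.34% were called in mut-16 and 1.33% in hrde-1 at this age. At 48 h its log2 fold changes were 0.19 in mut-16 and -0.07 in hrde-1 (SE 0.31 each, adjusted p = 0.90 and 1 by edgeR), where 3.90% and 0.822% of all tested piRNAs were called. At that age replicate 2 had the lowest CPM of 21ur-5504 in prg-1, mut-16, hrde-1 and wild type of set B, at 1263, 1608, 1538 and 1551 CPM, while in snpc-1.2;snpc-1.3 replicate 3 was lowest, at 355 CPM.

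The ratio of 21ur-5504 to 21ur-5107 counts within a library needs no scaling between libraries. At 72 h it averaged 0.00966 ± 0.00369 in snpc-1.2, with 0.937 ± 0.257 in wild type of set A. At 48 h it averaged 0.00147 ± 0.000667 in snpc-1.2, with 0.289 ± 0.0472 in wild type (SD, n = 3 each). In wild type of set B the ratio was 1.11 ± 0.313 at 72 h and 0.257 ± 0.0650 at 48 h, with no overlap of the ages. In wild type of set C it was 1.12 and 0.693 at 72 h in the 2 libraries with counts of both, and 0.521 to 0.766 at 48 h. In snpc-1.2;snpc-1.3 the ratio was 0.257 ± 0.139 at 72 h and 0.285 ± 0.0810 at 48 h. In prg-1 it was 0.664 ± 0.133 at 72 h and 0.513 ± 0.0497 at 48 h, and in snpc-1.3 0.925 ± 0.190 at 72 h and 0.521 ± 0.0444 at 48 h. Of 11 comparisons tested, 4 reached the smallest two-sided exact permutation p that 3 against 3 allows, 0.1 (adjusted p = 0.275 over the 11), namely prg-1 against wild type at each age and wild type at 72 h against 48 h in sets A and B.

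**Figure D3:**
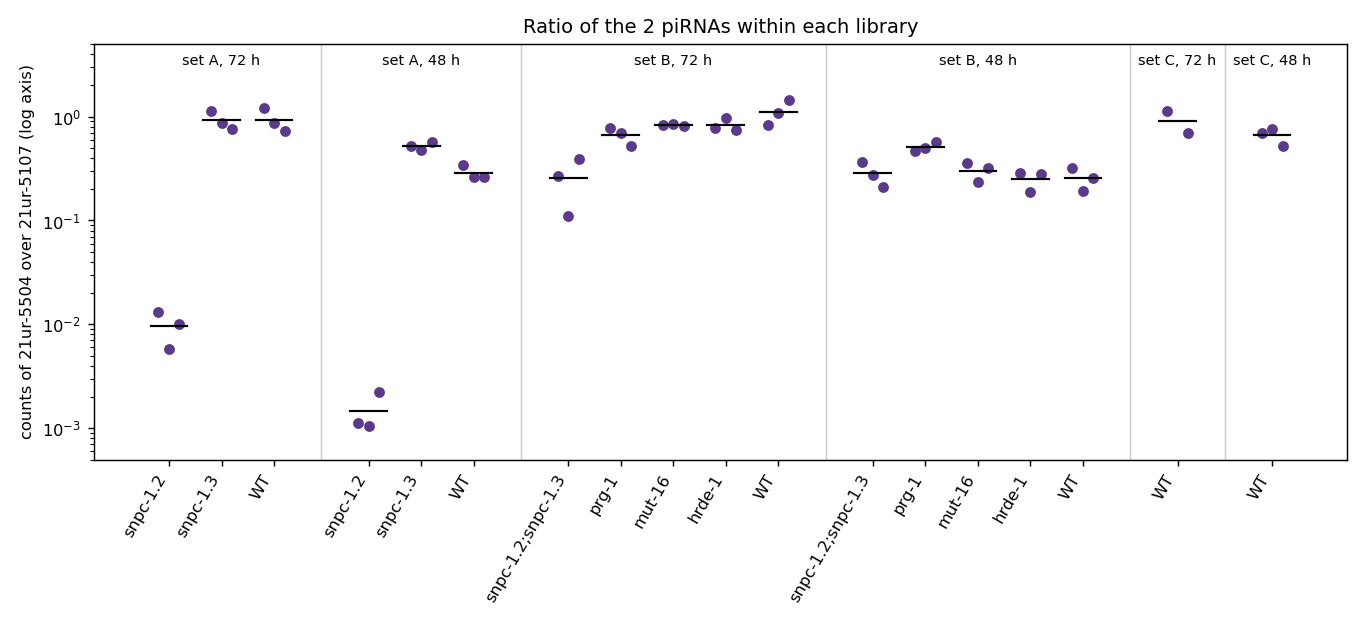
Counts of 21ur-5504 divided by counts of 21ur-5107 within each library (log axis), by set, age and genotype; points are libraries and lines are means, and the set C library with 0 counts of 21ur-5504 is left out. The ratio lies at 0.00105 to 0.0132 in snpc-1.2 and at 0.111 or more in every other library shown.

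The 20 listed piRNAs nearest to each of the pair were then taken, on either strand, to see whether their surroundings moved with them. Around 21ur-5107 they reach 2611 bases and 14 were tested, and around 21ur-5504 they reach 899 bases and 12 were tested. The nearest at the other side from the shifted copies are 21ur-14344, 786 bases before 21ur-5107 in coordinates, and 21ur-10502, 153 bases after 21ur-5504 and on the other strand. Of the 12 around 21ur-5504, 9 were called lower and 2 higher in snpc-1.2 at 72 h, with a median log2 fold change of -5.78 against 1.51 for all tested piRNAs. At 48 h 7 were called lower and none higher, with a median of -3.70 against 0.14. In snpc-1.3 at 48 h the call was higher for 7 and lower for 2, and the median was 1.56 against -0.19. In wild type at 72 h against 48 h it was higher for 9 and lower for 3, and the median was 1.38 against -0.31. With TMM factors 9 were called lower and 1 higher in snpc-1.2 at 72 h, and 10 lower and none higher at 48 h. Leaving out the shifted copies, 7 of 10 were called lower and 2 higher in snpc-1.2 at 72 h. Some of the 10 overlap each other on the same strand, so they do not all stand for separate loci.

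Of the 14 tested neighbours of 21ur-5107, 3 were called lower and 5 higher in snpc-1.2 at 72 h, where 30.6% of all tested piRNAs were called lower and 49.9% higher, and TMM factors gave 7 lower and 4 higher. Their median was 0.51 against 1.51 for all, and -1.39 against -0.42 with TMM factors. At 48 h 3 were called lower and none higher, with a median of 0.20 against 0.14, and TMM factors gave 8 lower and none higher. In snpc-1.3 at 48 h the call was higher for 3 and lower for 6, and in wild type at 72 h against 48 h it was higher for 5 and lower for 6. With TMM factors these counts were 5 and 6 in snpc-1.3, and 7 and 5 in wild type. Over all 8512 tested piRNAs on the CPM scale, 2623 were called higher and 3611 lower in snpc-1.3 at 48 h. In wild type 2975 were called higher and 3884 lower. The difference between the neighbourhoods was not tested.

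**Figure D4:**
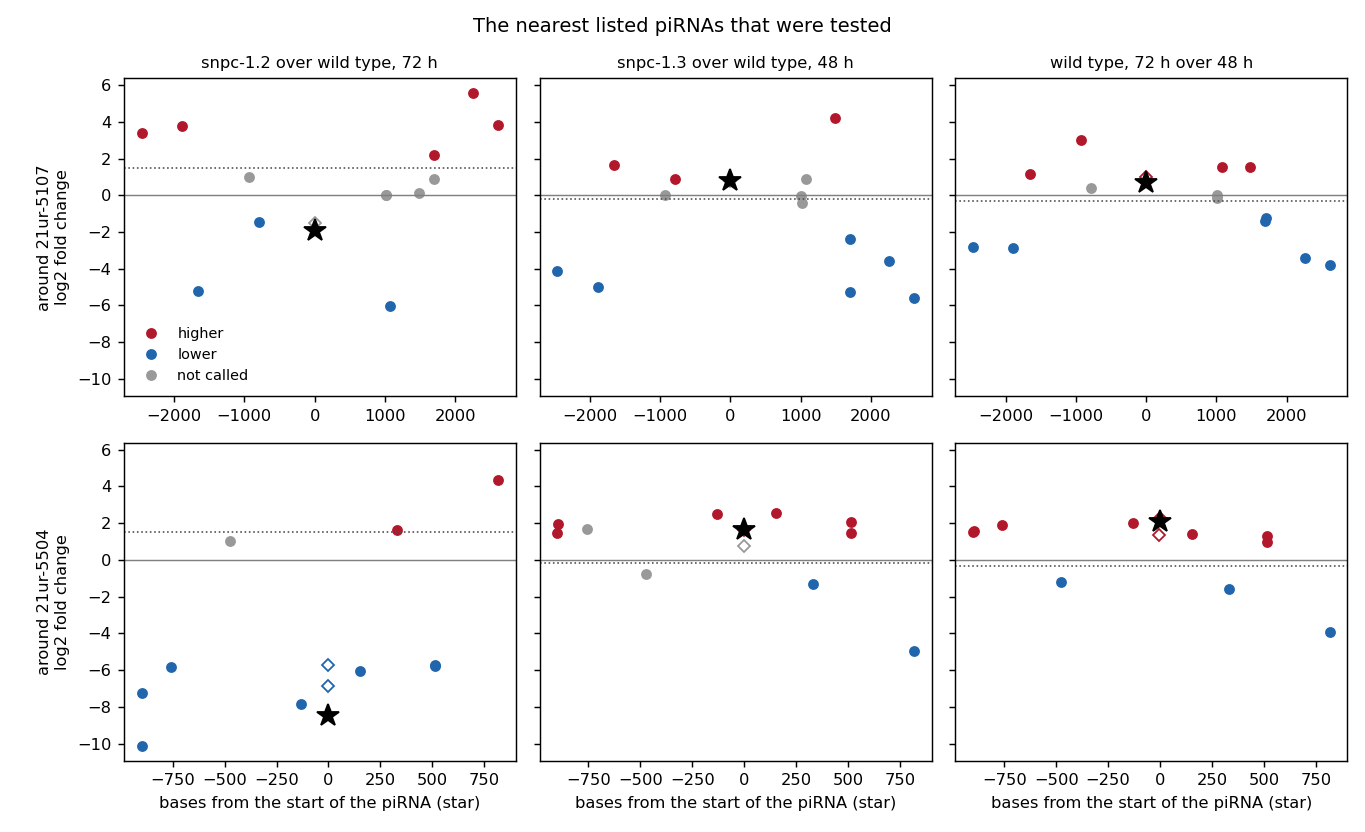
Log2 fold changes of the tested piRNAs nearest to 21ur-5107 (top) and 21ur-5504 (bottom) by distance between starts in bases, in snpc-1.2 over wild type at 72 h, snpc-1.3 over wild type at 48 h, and wild type at 72 h over 48 h; stars are the piRNA itself, open diamonds the shifted copies, and dotted lines the median of all tested piRNAs. Neighbour values are edgeR's moderated fold changes. Around 21ur-5504, 9 of 12 lie at called lower values in snpc-1.2, and around 21ur-5107 3 of 14, beside 30.6% of all tested piRNAs.

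The 50 piRNAs with the highest median CPM in the wild-type libraries of set C were also taken, and all 50 were tested. By that measure 21ur-5107 has rank 54 and 21ur-5504 rank 93, so every one of the 50 is more abundant there than both, and the list is not matched to the pair in abundance. In snpc-1.2 at 72 h 29 of the 50 were called lower and 6 higher, with a median log2 fold change of -0.94, where 21ur-5107 stood at -1.96 and 21ur-5504 at -8.50. TMM factors gave 45 lower and 3 higher there, with a median of -2.93. At 48 h 23 were called lower and none higher, with a median of -0.40, and TMM factors gave 43 lower, with a median of -1.39. In snpc-1.3 at 48 h the median was 0.66, with 30 called higher and 7 lower, and 37 and 5 with TMM factors. Of all 8512 piRNAs 2604 were called lower and 4251 higher in snpc-1.2 at 72 h, and 2223 lower and 264 higher at 48 h. In snpc-1.3 at 48 h 2623 of them were called higher and 3611 lower.

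For the mutant of both genes at 72 h, 28 of the 50 were called lower and 11 higher, with a median of -1.93, and TMM factors gave 44 lower and 1 higher, with a median of -3.95. At 48 h 31 were called lower and 9 higher, with a median of -1.51, and TMM factors gave 39 lower and 1 higher. Over all 8512 piRNAs 1396 were called lower and 1467 higher at 72 h, and 1734 lower and 1061 higher at 48 h. With TMM factors these were 3377 lower and 671 higher at 72 h, and 4050 lower and 901 higher at 48 h. In prg-1 at 72 h 44 of the 50 were called lower and none higher, with a median of -2.51, beside -2.54 for 21ur-5107 and -3.31 for 21ur-5504, and TMM factors gave 49 lower. At 48 h 20 were called lower and none higher, with a median of -1.51, beside -1.14 for 21ur-5107 and -0.12 for 21ur-5504, and TMM factors gave 47 lower. Of all 8512 piRNAs 584 were called lower and 448 higher in prg-1 at 72 h, and 447 lower and 415 higher at 48 h. Few piRNA counts were left in both mutants, so these numbers over all piRNAs do not measure how common a fall was.

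By mean CPM over the 18 groups, 21ur-5107 was highest in wild type of set A at 72 h (14168 ± 2746) and lowest in snpc-1.2;snpc-1.3 at 72 h (1451 ± 475). The first gap in this order that the libraries do not bridge lies below snpc-1.3 at 72 h (12676 ± 1579), between the 5 adult groups of sets A and B other than snpc-1.2, prg-1 and the mutant of both genes, together with snpc-1.3 larvae, and the larval groups that follow. 21ur-5504 was highest in wild type of set B at 72 h (14086 ± 1662) and lowest in snpc-1.2 at 48 h. Its 5 highest groups are adults that overlap with their neighbours in the order, and snpc-1.3 larvae stand alone in 6th place (6922 ± 917), apart from both sides. Then 8 groups from mut-16 at 48 h (2467 ± 815) to wild type of set C at 48 h (1197 ± 313) overlap in turn.

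The pair were not the most alike in pattern. Across the 18 group means of log2(CPM + 1), which share libraries and totals, Pearson's r between them was 0.62, which put 21ur-5504 at place 2311 by likeness to 21ur-5107. The nearest to 21ur-5504 were 21ur-119 (r = 0.99), 21ur-3615 (r = 0.98) and 21ur-2155 (r = 0.97), all on chromosome IV. 21ur-119 averaged 10.9 CPM in snpc-1.2, with 3499 in wild type at 72 h, and 2.40 CPM in snpc-1.2, with 664 in wild type at 48 h. 21ur-3615 averaged 9.84 CPM in snpc-1.2, with 1880 in wild type at 72 h, and 21ur-2155 13.9 CPM in snpc-1.2, with 3230 in wild type. The nearest to 21ur-5107 were 21ur-2821 and novel_21ur-1192 (r = 0.99 each) and 21ur-7039 (r = 0.98). 21ur-2821 and novel_21ur-1192 have 1 sequence at 2 loci, so their counts cannot be told apart. 21ur-7039 averaged 62.9 CPM in snpc-1.2, with 400.2 in wild type at 72 h, and 91.0 CPM in snpc-1.2, with 192 in wild type at 48 h.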

How the data were processed

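Small RNA libraries were made, per the labels' protocols, from total RNA pretreated with RNA 5′ polyphosphatase, with the NEBNext kit. Per the submitters' processing notes, the tools were Trimmomatic 0.39, Bowtie 1.1.1, HTSeq and edgeR, on build WBcel235. How reads that match several loci were handled is not given in the sources used here. The authors deposited raw counts for 17114 piRNAs and a second table of log2 CPM values, batch-corrected per the file headers, with positions and sequences for 13211 piRNAs. One adult wild-type library of set B, replicate 3, was sequenced again, per the file headers. A further 12 columns matched no sample and were not used, and 12 mutant samples labelled RT were not analysed here.

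The counts were tested with edgeR 4.0.16 (quasi-likelihood F test, robust, filterByExpr with minimum count 10 and total 15), all 54 libraries in 1 fit with 18 group means, scaled by the sum of piRNA counts, so that fold changes follow CPM. Adjustment was by Benjamini-Hochberg over 8512 piRNAs. Fold changes of named piRNAs are unmoderated and medians of lists use moderated ones. The main edgeR fit of the 12 contrasts of a mutant with wild type was run on simulated data. The alternatives, age contrasts and differences between ages were not. Ratios within a library were compared by two-sided exact permutation tests. Intervals are exact binomial at 95%, and the limit for a count of 0 is 3 counts. Intervals and limits cover counting error only.

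The piRNAs and the lists were chosen with earlier results of these data known. Named were the pair, the 3 piRNAs most like each, the nearest on each side, and those that overlap them. Alternatives were TMM factors, DESeq2 1.42.0, no filter, a replicate block, each set alone and leaving out each replicate.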

Additional observations from a re-analysis of the deposited data

Results flagged for a closer look

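The effect of snpc-1.3 on 21ur-5504 differed between the ages by an interaction test. The 72 h effect minus the 48 h effect was -1.79 in log2 units (SE 0.44, adjusted p = 0.0012 by edgeR), from -0.15 at 72 h and 1.64 at 48 h, and the alternatives gave -2.15 to -1.59, all called. The effect of prg-1 on 21ur-5504 also differed between the ages by an interaction test, at -3.18 (SE 0.61, adjusted p = 0.0050 by edgeR), from -3.31 at 72 h and -0.12 at 48 h. It rests on 4 to 21 counts a library in prg-1 and was lost with TMM factors and without prg-1 replicate 3 at 48 h. Both interaction tests share wild-type libraries with the choice of 21ur-5504 and are not independent of it. With 3 libraries a group, no single library was tested for standing apart.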

How the results depend on the processing

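With no filter on low counts, all 44 values of the pair kept their direction and call, and of those with the replicate block 43 did. Same-numbered libraries deviated together by correlations over 0.1 in every pair only in hrde-1 against wild type at 48 h (0.108 to 0.182), so the numbers were not taken to pair the samples; the block ended 1 call, 21ur-5504 in wild type of set C at 0.61 (edgeR adjusted p = 0.059), and gave for example -3.20 for 21ur-5107 in snpc-1.2;snpc-1.3 at 72 h.

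TMM factors moved the snpc-1.2 values to -3.95 and -1.49 for 21ur-5107 and -10.47 and -9.14 for 21ur-5504 at 72 h and 48 h, and their differences between ages to -2.45 and -1.34. They gave 1.31 for 21ur-5107 in snpc-1.3 at 48 h with -1.29 between ages, -7.27 for 21ur-5504 in snpc-1.2;snpc-1.3 at 72 h, -1.57, now called, for 21ur-5504 in prg-1 at 48 h, and -3.30, no longer called, between its ages. Uncalled values near 0 changed sign with TMM factors, to 0.017 for 21ur-5107 and 0.025 for 21ur-5504 in snpc-1.3 at 72 h and 0.0010 for 21ur-5107 in mut-16 at 48 h. The cause was not tested.

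DESeq2 gave -2.27 and -0.22 for 21ur-5107 in snpc-1.2 at 72 h and 48 h, differences between ages of -2.05 for 21ur-5107 and -0.89 for 21ur-5504, -5.96 for 21ur-5504 in snpc-1.2;snpc-1.3 at 72 h, and -0.83, no longer called, for 21ur-5107 in prg-1 at 48 h. Uncalled values changed sign to 0.18 for 21ur-5504 in prg-1 and 0.034 for 21ur-5107 in hrde-1, both at 48 h. Its size factors rested on 115 piRNAs above 0 in every library. With set B fitted alone the differences between ages of 21ur-5107 were called, at -0.89 in snpc-1.2;snpc-1.3 and -1.40 in prg-1.

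Leaving out each replicate kept 338 of 360 values. Without prg-1 replicate 3 at 48 h the age difference of 21ur-5504 in prg-1 was not called, over a range of -3.44 to -2.98. Uncalled values crossed 0 over ranges of -0.33 to 0.14 for 21ur-5504 in prg-1 at 48 h; of -0.16 to 0.040 and -0.048 to 0.45 for 21ur-5107 and 21ur-5504 in mut-16 at 48 h; of -0.054 to 0.026 and -0.26 to 0.19 in hrde-1 at 48 h; and for 21ur-5107 of -0.11 to 0.14 in mut-16 and -0.13 to 0.12 in hrde-1 at 72 h, with age differences of -0.054 to 0.19 and -0.10 to 0.15.

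Counts of called piRNAs moved with TMM factors, from 2795 to 4951 in snpc-1.2;snpc-1.3 at 48 h, from 862 to 2416 and from 1032 to 2123 in prg-1 at 48 h and 72 h (2339 with DESeq2), and in hrde-1 from 70 to 120 at 48 h and from 113 to 183 at 72 h with set B alone. Leaving out a replicate gave 25 to 47 at 48 h and 30 to 85 at 72 h in hrde-1, and 76 to 371 in mut-16 at 48 h. In prg-1 and snpc-1.2;snpc-1.3, 4 to 48 counts a library limit the precision of both piRNAs.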
